A study of Mus musculus with 12 samples.

Results

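Gas5, Snhg1, Snhg3, Snhg6, Snhg8 and Snhg12 are noncoding genes whose introns carry small nucleolar RNAs (snoRNAs). They were found by their symbols in the deposited count table, in which each has 1 row, so that they make up 6 of 55487 genes. A snoRNA host gene is transcribed as a long precursor, the snoRNAs are trimmed out of its introns, and the exons are joined into an RNA that encodes no conserved protein. Box C/D snoRNAs guide 2′-O-methylation and box H/ACA snoRNAs guide pseudouridylation of ribosomal RNA, while a few, such as the U17 snoRNAs, act in cleavage of the rRNA precursor. Spliced host RNAs often start, like many mRNAs of ribosomal proteins, with a run of pyrimidines. Several engage ribosomes on short reading frames and are known as substrates of nonsense-mediated decay, so that their level depends on translation as well as on transcription.

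Total RNA was measured in the liver and the brain of 6 mice, which gave 12 libraries in 4 groups of 3. The KO mice (A, C and F) lack METTL5, the methyltransferase that places N6-methyladenosine on 18S rRNA. Their allele is a whole-body deletion of exon 2 of Mettl5, obtained by crossing a floxed line, made in C57bl/6 x 129S6 hybrid ES cells and backcrossed to B6, with B6.C-Tg(CMV-cre)1Cgn/J mice, in which the CMV promoter drives Cre in all tissues. The control mice (B, D and E) are labelled WT, whereas the study's text compares the sequenced KO mice with heterozygotes and, for reads at the Mettl5 locus, shows a wild-type littermate of a KO mouse. The name WT is used below as the labels use it. Age, sex, litter and whether the controls carry Cre or the floxed allele are not given in the labels. The study as a whole used both sexes, aged 4 weeks to 6 months.

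The liver libraries held 16145754 to 21623180 counts each, and the brain libraries 14403309 to 18365114. Levels are given as normalised read counts in CPM, in which a library's counts are brought to a common total after scaling by edgeR's TMM factors, so that libraries of unequal depth can be compared. Mettl5 itself was lower in every KO library than in every WT library of the same tissue, at 4.64 to 5.23 against 10.1 to 19.0 CPM in liver and 2.61 to 3.12 against 3.96 to 7.13 CPM in brain, over a row that sums all of its exons. The 6 hepatocyte markers summed to between 73741 and 98184 CPM in liver and to at most 26.1 CPM in brain, and the 6 neuron markers to between 1944 and 2396 CPM in brain and to at most 21.5 CPM in liver. Mitochondrial rRNA took 21.4 to 31.6% of the counts in the KO brains and 7.63 to 17.7% in the WT brains. In liver the order was the other way, with 7.36 to 8.66% in the KO and 10.7 to 16.9% in the WT libraries, also without overlap. Y-linked transcripts were near absent in 1 mouse of each genotype, E and F.

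The hosts differ in how much of their span is annotated as exon, which bears on what their counts contain. Gas5 (growth arrest specific 5, ENSMUSG00000053332.13) lies at chr1:161034422-161038539 on the plus strand of mm10, and 91.3% of that span is exon of at least 1 of its 25 annotated transcripts, 20 of which are retained-intron forms. Snhg1 (ENSMUSG00000108414.1, chr19:8723475-8726443, plus strand), Snhg8 (ENSMUSG00000104960.1, chr3:123507552-123508404, minus strand) and Snhg12 (ENSMUSG00000086290.9, chr4:132308623-132311024, plus strand) are covered by exons over 100% of their spans. In these 4 genes the counts therefore do not separate spliced from unspliced RNA. Snhg6 (ENSMUSG00000098234.7, chr1:9941959-9944118, minus strand) has exons over 53.1% of its span and shares none of them. Snhg3 (ENSMUSG00000085241.7, chr4:132348014-132353686, minus strand) has exons over 17.4% of its span, and 29.8% of those exon bases are also exons of Rcc1, the neighbouring gene of a chromatin-bound exchange factor, or of Snora73a. In Gas5, Snhg1, Snhg8 and Snhg12 the shared part, all with small RNA genes, was 17.8%, 20.9%, 15.2% and 19.6%. A read on exons of more than 1 gene is left uncounted by featureCounts as the authors ran it, so reads that touch shared bases are missing from these rows. Such reads can reach into unshared bases, so the part of a row that is lost can exceed these percentages. Zbtb37, Gm17300 and Mcmdc2 overlap Gas5, Snhg3 and Snhg6 on the opposite strand, from which the stranded counting keeps them apart.

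The start of each host is shown because a C followed by pyrimidines at the first base is the mark of RNAs whose translation is regulated with that of ribosomal proteins. The windows hold 12 bases before a RefSeq start and 18 bases from it on (GRCm38.p6, read along the gene's strand), and capitals mark a run of C followed by at least 4 C or T that begins within 10 bases of the start. RefSeq gives Gas5 a pair of starts, and Snhg6 has no entry in the table used.
Gas5 (upstream start), chr1:161034589-161034618, plus: gggcgggcccgcgagctcgacagcccggag
Gas5 (downstream start), chr1:161035154-161035183, plus: cgccatctcagCCTTTCggagctgtgcggc
Snhg1, chr19:8723475-8723504, plus: gttcttgtcggcctcatttttccttgttcg
Snhg3, chr4:132353669-132353698, minus: tcgaccacgcctgaCTTCCgggcgttactt
Snhg8, chr3:123508319-123508348, minus: ccgttcagaagtCTCTTTggctgcgatccg
Snhg12, chr4:132308666-132308695, plus: cgttctcagtCCTTTCTCgcttcatccgcg
Such a run was found at 4 of the 6 host starts, against 30.7% of 32851 starts of all genes and 56.0% of 75 starts of ribosomal protein genes. In Snhg8 it began at the start base itself and in Snhg12 it was 8 bases long. The window of Snhg1 has pyrimidines further on but no run by this rule within 10 bases of the start.

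The bases upstream show a further shared letter pattern. TATA, searched on the gene's strand from 40 to 20 bases before the start, was found at 4 of the 6 host starts, against 5.8% of all starts and 9.3% of those of ribosomal protein genes. Both patterns stood together at 3 of the 6 host starts and at 1.9% of all starts. The 4 windows below run from 40 to 11 bases before the start, with TATA in capitals.
Gas5 (downstream start), plus: cacgaagacctTATATActcgactcagccg
Snhg1, plus: gcgagatgctattTATAggccacacgttgt
Snhg8, minus: tcacccgggcTATAaaagcgtgcgcgcacc
Snhg12, plus: cgcgagagTATATAatcctggtgcaggccg
These matches describe the letters in the windows. They are not evidence that a factor binds there.

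The 6 hosts enclose 27 annotated snoRNA genes on their own strand, 10 in Gas5, 8 in Snhg1, 5 in Snhg12, 2 in Snhg3, and 1 each in Snhg6 and Snhg8. Snord80 in Gas5 and Snora16a in Snhg12 each have a pair of rows over nearly the same bases, and both rows of a pair are counted here and in the shares that follow. Letters of box C (ATGATGA or GTGATGA within the first 20 bases) together with box D (CTGA beginning within the last 20) were found in 15 of the 27, against 20.1% of the 1507 snoRNA genes of the table. They were in 8 of the 10 genes in Gas5 and in 5 of the 8 in Snhg1. Failing these, ACA within the last 8 bases, the box of the H/ACA class, was found in 6 of the 27, those being both genes of Snhg3, the gene of Snhg8 and 3 of the 5 of Snhg12, against 46.1% of all snoRNA genes. The following were chosen because they show both classes and both outcomes of the counting described next (GENCODE M21 sequences, GRCm38, boxes in capitals).
Snord87 in Snhg6, chr1:9942463-9942549, minus: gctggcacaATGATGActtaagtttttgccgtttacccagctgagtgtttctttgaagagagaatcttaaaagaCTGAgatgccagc
Snora73b in Snhg3, chr4:132352322-132352526, minus: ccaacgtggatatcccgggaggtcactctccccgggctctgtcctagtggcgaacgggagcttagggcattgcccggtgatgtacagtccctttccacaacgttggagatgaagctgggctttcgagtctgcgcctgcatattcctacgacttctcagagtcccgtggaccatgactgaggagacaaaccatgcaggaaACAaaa
Snord47 in Gas5, chr1:161038082-161038158, plus: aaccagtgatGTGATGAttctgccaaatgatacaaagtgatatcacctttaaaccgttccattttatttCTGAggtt
Snora24 in Snhg8, chr3:123507937-123508066, minus: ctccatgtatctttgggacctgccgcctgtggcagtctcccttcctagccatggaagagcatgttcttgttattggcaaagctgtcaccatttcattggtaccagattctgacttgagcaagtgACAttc

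Counts reached only those snoRNA rows that are not wholly inside annotated exons. Of the 27, 24 lie wholly in exons of another gene, and all 24 had 0 counts in all 12 libraries, Snord47 and Snora24 among them. The other 3 had counts. Snora73b, a U17 snoRNA in an intron of Snhg3, had 272 to 704 counts per library, Snord87 in an intron of Snhg6 had 79 to 473, and Snora73a, whose sequence nearly repeats that of Snora73b and whose bases are 77.6% within exons, had 0 to 1. Over the whole table, 160 snoRNA genes lie wholly in exons of another gene and none of them had a count, while 464 of the other 1347 (34.4%) had. A 0 in these rows is thus the value of a row to which no read could be assigned, and levels of the snoRNAs of Gas5, Snhg1, Snhg8 and Snhg12 cannot be read from this table.

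**Figure D1:**
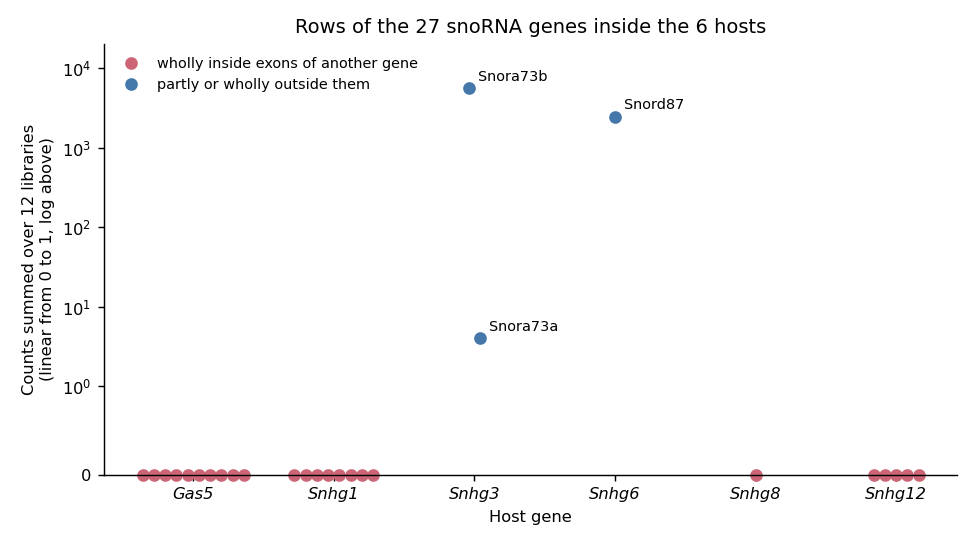
Counts summed over the 12 libraries (vertical axis, linear from 0 to 1 and logarithmic above) of each of the 27 snoRNA genes, 1 point each, placed by host gene. The 24 genes wholly inside exons of another gene sit at 0, and Snora73b, Snord87 and Snora73a, which are not, had 5623, 2449 and 4 counts.

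Gas5 was the most counted host in every library, with 305 to 632 counts, and took 55.5 to 68.6% of the summed CPM of the 6. Snhg8 had 65 to 115 counts per library, Snhg12 42 to 127, Snhg6 41 to 78 and Snhg1 30 to 65. Snhg3 had 5 to 24, which leaves its value within a library with a large counting error. The 6 hosts together came to 31.2 to 59.1 CPM per library.

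Per length, Gas5 and Snhg8 were the highest of the hosts and overlapped in every group but WT brain. The length is that of all annotated exons, retained-intron forms included, so the order depends on the annotation as well as on the counts. Snhg1 and Snhg6, for example, were at 3.05 and 3.99 CPM in WT liver over 2969 and 1146 exon bases. In WT liver, Snhg8 was at 8.02 ± 1.77 CPM per kb of exon (SD, n = 3) and Gas5 at 7.75 ± 0.863, with overlapping libraries. Snhg6 followed at 3.48 ± 1.04, Snhg12 at 1.64 ± 0.291, Snhg1 at 1.03 ± 0.343 and Snhg3 at 0.674 ± 0.405 CPM per kb, and only Snhg1 and Snhg3 overlapped among these neighbours in the order. In WT brain the order was Gas5 (6.22 ± 1.35), Snhg8 (4.32 ± 0.444), Snhg6 (2.44 ± 0.241), Snhg12 (2.06 ± 0.278), Snhg1 (0.659 ± 0.0641) and Snhg3 (0.656 ± 0.302 CPM per kb), where Snhg6 and Snhg12, and Snhg1 and Snhg3, overlapped. In the KO groups Gas5 was first and Snhg8 second, at 8.75 ± 1.22 and 6.80 ± 1.51 CPM per kb in liver and 8.01 ± 3.12 and 6.28 ± 0.561 in brain, with overlap in both tissues. Divided instead by the exon bases that no other gene shares, a choice made after the overlap was seen, Snhg8 was at 9.47 and Gas5 at 9.43 CPM per kb in WT liver, and Snhg3 at 0.961. Gas5 and Snhg8 kept the highest levels per length in all 4 groups, while in WT brain Snhg3 (0.935) passed Snhg1 (0.833) and Snhg12 (2.56) passed Snhg6 (2.44).

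**Figure D2:**
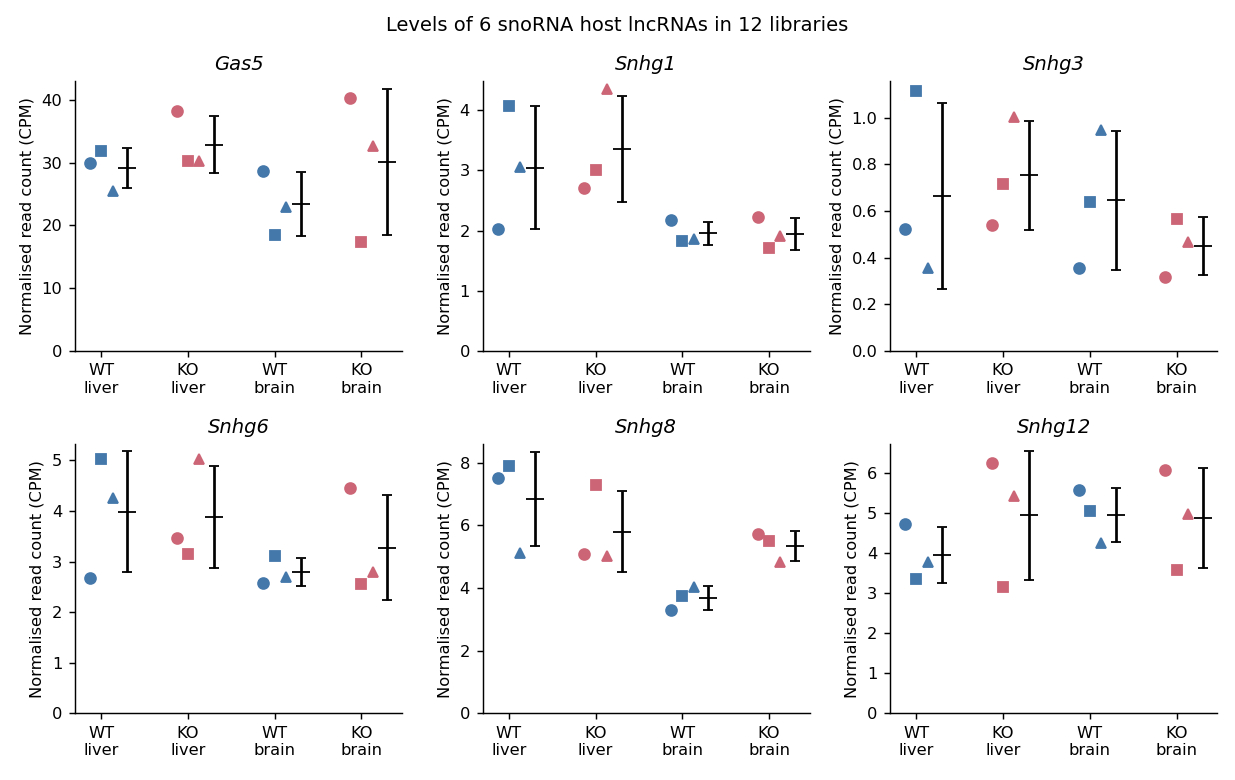
Normalised read counts in CPM (vertical axes, each from 0) of the 6 host genes in the 12 libraries, 1 panel per gene. Points are libraries (blue WT, red KO; circle, square and triangle for mice B, D and E or A, C and F), and bars show the mean and SD of 3. The KO brain libraries of Snhg8, at 4.82 to 5.74 CPM, lie above its WT brain libraries, at 3.29 to 4.04, while the KO and WT libraries of the other genes overlap in both tissues.

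In liver, the comparison of KO with WT asked whether host RNA levels differ without METTL5. Gas5 was at 29.98, 31.9 and 25.6 CPM in the WT livers and at 38.2, 30.2 and 30.3 CPM in the KO livers. Only the KO liver of mouse A stood above all WT livers. Its log2 fold change was 0.15 (SE 0.15, 95% interval -0.19 to 0.49), with an adjusted p of 0.893 (edgeR's quasi-likelihood test, Benjamini-Hochberg over 14075 genes). For Snhg8, which carries the H/ACA snoRNA Snora24, the WT livers were at 7.53, 7.89 and 5.11 CPM and the KO livers at 5.09, 7.29 and 5.03. Mice A and F were below the WT range and mouse C within it, and the log2 fold change was -0.26 (interval -0.86 to 0.33).

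Snhg12, the host of Snora44 and Snora61 among others, was at 4.71, 3.35 and 3.76 CPM in the WT livers and at 6.25, 3.14 and 5.43 in the KO livers. Its KO livers spanned the WT range, and its log2 fold change was 0.29 (interval -0.41 to 1.0). Snhg1, the host of 8 snoRNA genes, and Snhg6 had WT livers at 2.03 to 4.07 and 2.68 to 5.02 CPM and KO livers at 2.7 to 4.36 and 3.14 to 5.03 CPM. Their log2 fold changes were 0.11 (interval -0.68 to 0.91) and -0.065 (interval -0.81 to 0.68). Snhg3 fell under the filter on low counts in liver, with 27 counts over the WT and 32 over the KO libraries. None of the 5 hosts tested was called at an adjusted p under 0.1, where 0% of all genes were called, and none had an unadjusted p under 0.05, where 7.33% of all genes had one. DESeq2 called none of the 6 either. No host had KO and WT livers without overlap, which 13.2% of all genes tested had. The intervals were narrowest for Gas5 and wider for the other 4, whose counts were lower. Without mouse A the estimates of Gas5 and Snhg12 were 0.027 and 0.093, and that of Snhg12 was 0.53 without mouse C.

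In brain, Snhg8 had the smallest p-value of the hosts. It was at 3.29, 3.74 and 4.04 CPM in the WT brains and at 5.74, 5.50 and 4.82 CPM in the KO brains. All 3 KO brains thus stood above all 3 WT brains, as did 8.42% of all genes tested (16.4% did not overlap in either direction). The log2 fold change was 0.54 (SE 0.21, interval 0.070 to 1.01) at an unadjusted p of 0.0285, a level under which 11% of all genes fell. It was not called over all genes, with an adjusted p of 0.411 (edgeR) and a range of 0.305 to 0.934 over 12 other settings, all of which kept its direction. The unadjusted p was above 0.05 with DESeq2 (0.0522), with no filter on low counts (0.0619) and when mouse A, B, C or D was left out, and with an offset for GC content and length the log2 fold change was 0.35 (unadjusted p 0.156). A two-sided exact permutation test on its CPM values gave p = 0.1, the smallest that 3 against 3 libraries can give.

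Gas5 had the widest range in CPM of the hosts in brain. It was at 28.7, 18.5 and 23.0 CPM in the WT brains and at 40.3, 17.3 and 32.7 CPM in the KO brains of mice A, C and F. The KO brains of A and F stood above the WT range and that of C below it. The log2 fold change was 0.37 (interval -0.31 to 1.05), with an adjusted p of 0.637 (edgeR). Without mouse C it was 0.65 with an adjusted p of 0.182, and without mouse A it was 0.10. Mouse C also had the lowest KO brain values of Snhg12 (3.57 CPM against 6.06 in A and 4.97 in F), Snhg1 (1.70 against 2.23 and 1.92) and Snhg6 (2.55 against 4.46 and 2.80), though not of Snhg8 or Snhg3.

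The remaining hosts showed no shift beyond the spread of the libraries. Snhg1 was at 2.17, 1.83 and 1.86 CPM in the WT brains, overlapping the KO brains, with a log2 fold change of 0.00082 (interval -0.63 to 0.63). Snhg12 was at 5.56, 5.05 and 4.24 CPM in the WT brains, within the span of the KO brains, with a log2 fold change of -0.020 (interval -0.57 to 0.53). For Snhg6 the WT brains were at 2.58, 3.10 and 2.69 CPM and the log2 fold change was 0.23 (interval -0.41 to 0.86), which became -0.060 without mouse A.

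Snhg3 was at 0.354, 0.637 and 0.950 CPM in the WT brains and 0.319, 0.567 and 0.466 in the KO brains, from 47 and 24 counts in all, with a log2 fold change of -0.52 (interval -1.68 to 0.63), which was -0.13 without mouse E and -0.79 without mouse B. None of the 6 hosts was called in brain by edgeR, where 0.064% of all genes were, nor by DESeq2, and 1 of the 6 had an unadjusted p under 0.05. The KO brains also differed from the WT brains in regional markers. All 9 olfactory bulb markers were higher (5 called), with sums of 37.3 to 54.4 against 5.86 to 13.8 CPM. The 8 cerebellum markers were all lower (0 called), with sums of 61.6 to 438 against 667 to 1161 CPM, as were the 6 choroid plexus markers, with sums of 13.5 to 18.3 against 22.3 to 35.9 CPM (0 called), and none of these markers was at 0 in either group. With mitochondrial and rRNA rows left out of the brain fit, the log2 fold change of Snhg8 was 0.54 (unadjusted p 0.0274, edgeR). Whether the regional differences, or the higher share of mitochondrial rRNA in another way, have a part in its values was not tested. In whole tissue, fewer cells of a type and less RNA per cell cannot be told apart.

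The genotype effects in liver and in brain were then set against each other in a fit of all 12 libraries. For Snhg8 the liver effect minus the brain effect was -0.77 on the log2 scale (SE 0.34, interval -1.50 to -0.037), at an unadjusted p of 0.0408 and an adjusted p of 0.453 (edgeR). Since liver and brain come from the same mice, it was also fitted with mouse as a block, which gave -0.77 at an unadjusted p of 0.0745. It was negative under the 12 other settings as well, from -1.01 to -0.58, with adjusted p-values from 0.332 to 0.842. The other 5 hosts had differences from -0.25 for Snhg6 to 0.73 for Snhg3, with intervals that include 0. None of the 6 was called by edgeR or DESeq2, and 0% of all genes were by edgeR, while 1 of the 6 had an unadjusted p under 0.05 against 10.6% of all genes.

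Between the tissues, calls were made for Snhg8 in the WT mice and for Snhg1 in both genotypes. In the WT mice, Snhg8 was at 3.29 to 4.04 CPM in brain against 5.11 to 7.89 in liver, without overlap, and was lower in brain in each of the 3 mice, by 1.17, 1.05 and 0.33 on the log2 scale in mice B, D and E. Its log2 fold change of brain against liver was -0.89 (SE 0.24, interval -1.41 to -0.37), with an adjusted p of 0.00426 (edgeR). The call was also made under 11 of 12 other settings, and with mouse as a block the adjusted p was 0.0151. It was lost, with a log2 fold change of 0.020, when the block was combined with an offset for the trend of each library with GC content and length.

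Snhg1 was at 1.83 to 2.17 CPM in the WT brains and at 2.03 to 4.07 in the WT livers. The liver of mouse B lay within the range of the brains and the other livers above it. The log2 fold change was -0.64 (SE 0.32, interval -1.31 to 0.042), with an adjusted p of 0.0826 (edgeR), a call that was made under 3 of 12 other settings. With mouse as a block the adjusted p was 0.167, and without mouse D the log2 fold change was -0.33 with an adjusted p of 0.461. Calls for 2 of the 6 hosts, both lower in brain, compare with 78.4% of all genes called and 34.8% called as lower in brain.

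Gas5, Snhg6, Snhg12 and Snhg3 were not called between the WT tissues. Gas5 was at 18.5 to 28.7 CPM in brain and 25.6 to 31.9 in liver, with a log2 fold change of -0.32 (interval -0.87 to 0.23). Snhg6 had -0.51 (interval -1.19 to 0.17) and Snhg3 -0.0049 (interval -1.21 to 1.2). Snhg12 was the only host with a positive estimate, 0.32 (interval -0.31 to 0.96). Within the WT mice B, D and E its brain minus liver values were 0.23, 0.58 and 0.17 on the log2 scale, while those of Gas5 were -0.064, -0.78 and -0.15 and those of Snhg6 -0.055, -0.67 and -0.64. With the block and the GC and length offset together, Snhg12 was called as higher in brain at 0.99 (adjusted p 0.00487, edgeR), and Snhg6 and Snhg3 had 0.33 and 0.87, not called.

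In the KO mice, Snhg1 was called between the tissues and the other 5 hosts were not. It was at 1.70 to 2.23 CPM in brain and 2.7 to 4.36 in liver, without overlap, and was lower in brain in mice A, C and F by 0.26, 0.78 and 1.14 on the log2 scale. Its log2 fold change was -0.78 (SE 0.32, interval -1.47 to -0.10), with an adjusted p of 0.0370 (edgeR), which rose to 0.113 without mouse C and to 0.254 without mouse F, and was 0.0848 with mouse as a block. Snhg8 was at 4.82 to 5.74 CPM in brain and 5.03 to 7.29 in liver, with overlap and a log2 fold change of -0.12 (interval -0.64 to 0.40). The other 4 had estimates from -0.73 for Snhg3 to -0.022 for Snhg12. With mouse as a block and the GC and length offset together, Snhg8 (0.60, adjusted p 0.0567, edgeR) and Snhg12 (0.63, adjusted p 0.0453) were called as higher in brain, while Snhg1 stayed called as lower (-0.81). Of the 6 hosts, 1 was called, lower in brain, where 80% of all genes were called and 35.5% were lower.

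**Figure D3:**
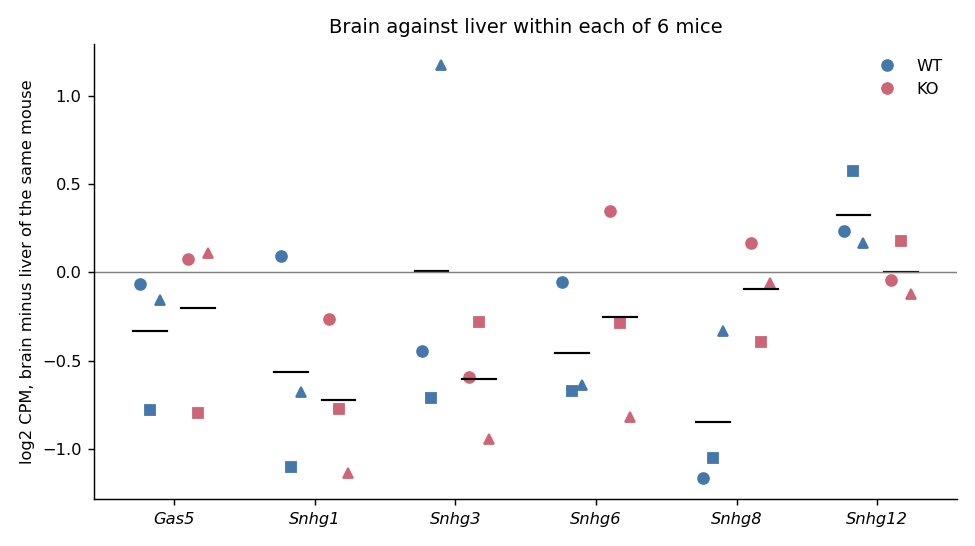
Log2 CPM in the brain minus that in the liver of the same mouse (vertical axis) for each host gene. Points are mice (blue WT, red KO; circle, square and triangle for B, D and E or A, C and F) and black lines are means of 3. The WT mice lie below 0 for Snhg8, at -1.17, -1.05 and -0.33, and the KO mice at 0.17, -0.40 and -0.060.

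Snora73b and Snord87, the 2 snoRNA rows with enough counts to be tested, did not differ between genotypes beyond their spread. Snora73b was at 24.2, 27.1 and 19.3 CPM in the WT livers and 22.8, 29.2 and 36.4 in the KO livers, and at 34.7, 25.7 and 16.0 in the WT brains and 44.9, 20.7 and 30.6 in the KO brains. KO and WT overlapped in both tissues, with log2 fold changes of 0.30 (interval -0.15 to 0.74) in liver and 0.34 (interval -0.43 to 1.10) in brain.

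Snord87 was at 14.3, 7.68 and 4.79 CPM in the WT brains and at 30.2, 4.48 and 15.7 CPM in the KO brains, where mouse C was again the lowest. Its log2 fold change was 0.92 in brain (interval -0.52 to 2.37) and 0.051 in liver (interval -0.74 to 0.85). Neither row was called in any of the 5 comparisons (edgeR), with unadjusted p-values of at least 0.166. In each of the 12 libraries Snora73b had a higher CPM than Snhg3 and Snord87 a higher CPM than Snhg6. The row of Snhg3 lacks the reads on exon bases shared with Rcc1 or Snora73a. Rows in introns do not separate a snoRNA from unspliced host RNA.

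Genes that share a role with the hosts were taken as lists, some of which share members (among them ribosomal protein genes that are coding hosts, while Nop56, Nop58 and Dkc1 are coding hosts and snoRNP genes, Eef1b2 and Eef2 coding hosts and translation genes, and Smg5 a decay factor and a decay target). Of 16 other noncoding hosts, 13 have a row under the symbol used and 10 were tested in liver and 12 in brain, with 0 called in either (0 at an unadjusted p under 0.05 in liver and 1 in brain). Their median log2 fold change was 0.17 in liver and 0.23 in brain, against -0.0024 and -0.0016 over all genes tested and 0.11 for the 5 hosts tested in liver and for the 6 in brain. Those with the smallest p-values were Epb41l4aos at 0.65 (SE 0.31), Snhg15 at 0.74 (SE 0.47) and Snhg17 at 0.27 (SE 0.22) in liver, and Rian at 0.52 (SE 0.19), Snhg14 at 0.27 (SE 0.15) and Snhg18 at 0.54 (SE 0.36) in brain. Of 23 protein-coding hosts, 14 were higher and 9 lower in KO liver and 18 higher and 5 lower in KO brain, none called, with medians of 0.062 and 0.13. Nop58, a core box C/D protein whose own introns carry snoRNAs, had -0.37 (SE 0.18) in KO liver but 0.41 (SE 0.16) in KO brain. The nucleolar protein gene Ncl had -0.41 (SE 0.17) in liver.

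The factors that degrade or process such RNAs were not called either. Among 18 genes of nonsense-mediated decay, the exon junction complex and decapping, the median was 0.047 in liver and -0.17 in brain, where 16 of the 18 were lower (8630 of 17188 over all genes tested), with Upf2 at 0.42 (SE 0.15), the kinase gene Smg1 at -0.38 (SE 0.15) and the helicase gene Upf1 at -0.45 (SE 0.24). In liver the smallest p-values were those of Upf3b at -0.57 (SE 0.17), Smg9 at 0.41 (SE 0.17) and Rbm8a at -0.37 (SE 0.16). The 14 protein-coding genes with known decay targets had medians of 0.082 in liver and -0.048 in brain, and the 9 snoRNP protein genes 0.051 and 0.17. A list of 13 genes of translation and the nucleolus, from elongation factors to Tpt1 and Npm1, had 0.061 and 0.076. Npm1, a nucleolar chaperone, had the smallest p of these in both tissues, at -0.69 (SE 0.14, adjusted p = 0.383, edgeR) in liver and 0.46 (SE 0.19) in brain. The 76 tested cytosolic ribosomal protein genes had 0.086 and 0.20, with 60 higher in KO liver and 66 in KO brain and 0 called. Over all genes tested, 6984 of 14075 were higher in KO liver and 8558 of 17188 in KO brain. The part of the regional markers and mitochondrial rRNA of the KO brains in these list values was not tested.

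**Figure D4:**
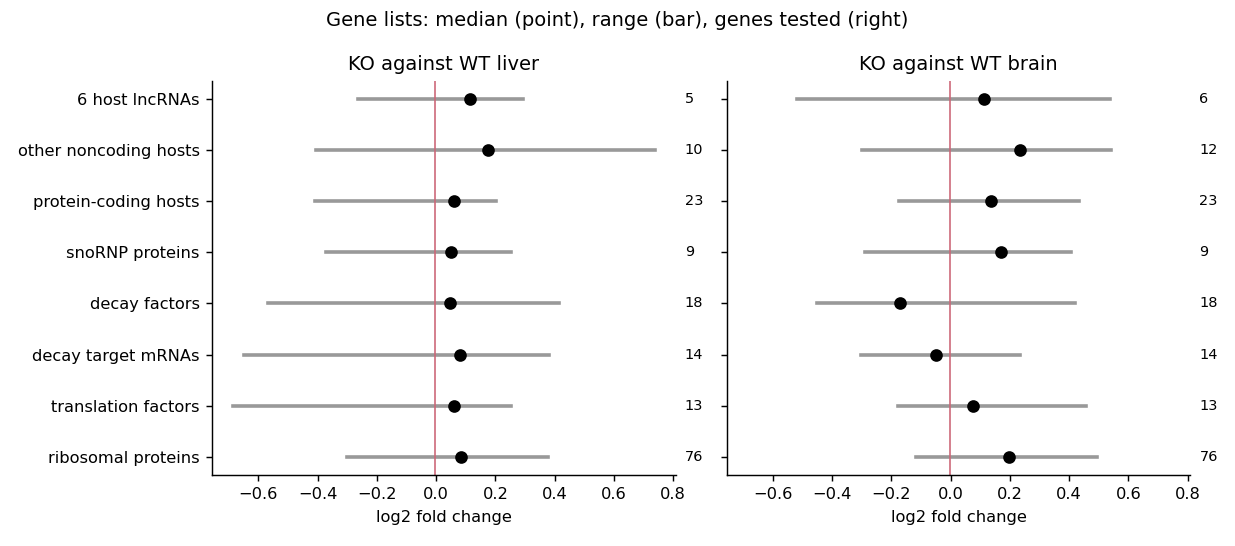
Log2 fold change of KO against WT in liver (left) and brain (right) for the 6 host lncRNAs and 7 gene lists. Points are medians, bars the range over the genes tested, whose number stands at the right, and the red line is the median of all genes tested. The medians span 0.047 to 0.17 in liver and -0.17 to 0.23 in brain, and no gene in these lists was called.

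Between tissues, other noncoding hosts covered a far wider range than the 6. In WT brain against WT liver, 6 of 12 were called higher in brain and 2 lower, where 43.6% of all genes tested were called higher and 34.8% lower. In liver alone 10 passed the filter on low counts, so the calls as higher may include hosts kept through their brain counts. Snhg14, the long host of neuronal box C/D snoRNAs at the imprinted Ube3a locus, had a log2 fold change of 7.51 (SE 0.23) and Rian, an imprinted host expressed from the maternal allele, 7.93 (SE 0.39). Snhg11 had 5.69, Snhg10 2.41, Snhg18 1.18 and Snhg20 0.60, while Snhg17 had -0.85 and Epb41l4aos -0.87. Of the 23 protein-coding hosts, 12 were called lower and 3 higher (median -0.32). Calls as lower were also the more frequent among the list of elongation factors and other genes of translation, with 10 of 13 called lower and 0 higher (median -0.63), and among the ribosomal proteins, with 50 of 76 called lower and 2 higher (median -0.64). The 6 hosts had a median of -0.41, against 0.21 over all genes tested. With the block and the GC and length offset together, Snhg3, Snhg6, Snhg8 and Snhg12 had positive estimates and Gas5 and Snhg1 negative ones. Medians of the lists under that setting are not given here.

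The genes whose levels moved most like each host were found from log2 CPM over the 12 libraries after each tissue's mean was subtracted, among 12600 other genes. They share the libraries, their depth and their genotypes, and with so many genes the highest of the correlations are large by selection, so they are given as a description. For Gas5 they were Ppp2r2d (Pearson r = 0.95), a phosphatase subunit gene, and Fyttd1 (0.95), an mRNA export factor gene. For Snhg8 they were Mydgf (0.88) and Invs (0.88), for Snhg12 Crebzf (0.88) and Eif5a2 (0.88), and for Snhg6 BC025446 (0.94) and Rnase4 (0.87). For Snhg1 they were Poglut1 (0.89) and Gm22786 (0.89), and for Snhg3, with its few counts, Dcaf12l1 (0.88) and Impdh1 (0.84). Between hosts r ran from -0.44 for Snhg8 and Snhg12 to 0.80 for Snhg1 and Snhg6. Within a tissue these pairs kept their sign, at -0.63 and 0.93 in liver and -0.20 and 0.57 in brain. Some other pairs had unlike signs in the tissues, such as Snhg1 and Snhg12 (-0.17 in liver, 0.90 in brain) and Snhg1 and Snhg3 (0.71 and -0.74).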

How the data were processed

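The authors prepared stranded total RNA libraries (SMARTer kit), sequenced single-end reads, trimmed them with Trimmomatic, checked them with FastQC 0.11.5, aligned them to mm10 with STAR 2.7.3a and ran featureCounts over exons in its reverse-stranded mode. The deposited values are raw counts per gene, with no normalisation. The authors compared genotypes with DESeq2.

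Counts were analysed here with edgeR 4.0.16 in R 4.3.3 (TMM, filterByExpr, robust quasi-likelihood F test, Benjamini-Hochberg over all genes tested, call at an adjusted p under 0.1), each tissue on its own for KO against WT and all 12 libraries together for comparisons across tissues. Alternatives were DESeq2 1.42.0 and its size factors, no filter on low counts, leaving out mitochondrial and rRNA rows or each mouse, a Y-linked covariate, an offset for GC content and length, mouse as a block and, chosen after seeing the data, unshared exon length, and the steps were tested on simulated data. Standard errors and 95% intervals come from the F statistic. Symbols were matched for 55141 of 55487 genes. Log2 CPM used a prior count of 2.

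The members, the gene lists and the tests were chosen with earlier results of these data known. All 6 hosts, the snoRNA rows tested and Mettl5 are named, with called genes of a list, or at most 3 with the smallest unadjusted p where none was called (for large lists between tissues, counts and medians, and for markers of cell types and regions, sums and counts). The 2 genes most like a host have a mean log2 CPM of at least 1.

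The labels pair liver and brain by mouse. The correlation, within a mouse, of the departures of its 2 tissues from their group means lay between -0.049 (A) and 0.193 (E) over 12601 genes. Intervals cover the spread of these libraries. The study's text speaks of KO and control pairs, a pairing that is absent from the labels.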

Additional observations from a re-analysis of the deposited data

How the results depend on the processing

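The counts of hosts called between genotypes and for the difference between tissues were 0 under every setting tried. Between WT tissues, 2 calls became 1 with DESeq2's size factors, with DESeq2, with no filter on low counts, with mouse as a replicate block, and with that block plus a GC and length offset, and were 1 to 2 when each mouse was left out. Between KO tissues, 1 call became 3 under the block plus offset and was 0 to 1 with a mouse left out. Without the offset, the block changed no call but that of Snhg1 between WT tissues (-0.60, adjusted p 0.167, edgeR), and with it the 1 host called there was Snhg12 (0.99, adjusted p 0.00487). Over all genes, the 11 calls in brain became 269 with DESeq2, 1000 with no filter and 48 with the offset, and the 0 calls in liver became 171, 443 and, with a Y-linked covariate, 82, with none of the hosts among them.

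Some estimates changed sign. Of these only Snhg8 between WT tissues (-0.89) had been called, and none was called after the change unless stated. With the GC and length offset, Snhg6 became 0.13 in liver and -0.11 in brain, and Snhg1 -0.25 in brain, where it was also -0.011 with DESeq2 and -0.023 with no filter. With the block and the offset, the liver effect minus the brain effect became 0.13 for Gas5 and 0.18 for Snhg6, WT brain against liver became 0.87 for Snhg3, 0.33 for Snhg6 and 0.020 for Snhg8, and KO brain against liver became 0.15 for Snhg6, 0.60 for Snhg8 and 0.63 for Snhg12, the last 2 called (adjusted p 0.0567 and 0.0453, edgeR). Snhg3 between WT tissues was 0.083 with DESeq2's size factors, 0.090 with DESeq2, 0.056 with no filter and 0.0035 without mitochondrial and rRNA rows. Snhg12 between KO tissues was 0.093 with DESeq2's size factors, 0.096 with DESeq2 and 0.0013 with no filter. Those size factors moved the median of all genes by 0.11 between KO tissues and by 0.089 between WT tissues. The cause of these changes was not tested.

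With a mouse left out, the ranges that crossed 0 were, in liver, -0.12 to 0.38 for Snhg1 and -0.29 to 0.14 for Snhg6, and in brain -0.11 to 0.089 for Snhg1, -0.060 to 0.37 for Snhg6 and -0.21 to 0.16 for Snhg12. For the difference between tissues they were -0.41 to 0.025 for Gas5, -0.15 to 0.46 for Snhg1 and -0.59 to 0.11 for Snhg6. Between WT tissues the range was -0.69 to 0.58 for Snhg3, and between KO tissues -0.27 to 0.091 for Gas5, -0.61 to 0.078 for Snhg6, -0.25 to 0.058 for Snhg8 and -0.085 to 0.033 for Snhg12.

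With a mouse left out, other estimates kept their sign but moved by over 1.5 times, to between 0.027 (without A) and 0.22 (D) for Gas5, 0.093 (A) and 0.53 (C) for Snhg12 and -0.14 (D) and -0.47 (C) for Snhg8 in liver, and -0.13 (E) and -0.79 (B) for Snhg3 in brain. For the difference between tissues they were 0.048 (E) to 1.31 (D) for Snhg3 and 0.23 (D) to 0.41 (E) for Snhg12, and between WT tissues -0.47 (B) to -0.11 (D) for Gas5 and 0.21 (D) to 0.39 (B) for Snhg12. With the GC and length offset, Gas5 moved to 0.28 in liver and 0.19 in brain, Snhg1 to 0.29 in liver, and Snhg8 to 0.35 and Snhg3 to -0.79 in brain. With the block and the offset, Gas5 moved to -0.091 and Snhg1 to -0.26 between WT tissues, Gas5 to -0.22 and Snhg3 to -0.18 between KO tissues, and Snhg1 to 0.55 for the difference between tissues. Between KO tissues, DESeq2's size factors and DESeq2 gave -0.014 and -0.011 for Gas5, -0.0081 and -0.0045 for Snhg8 and -0.14 in both for Snhg6, and the block alone gave -0.20 for Gas5.

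Depth is low, with 5 to 127 counts per library in 5 of the 6 hosts, and each group holds 3 mice.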
